A study of Homo sapiens with 9 samples.

Results

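The genes described here are the 46 genes of sterol and fatty acid synthesis that sterol regulatory element-binding proteins (SREBPs) are known for, with the 2 SREBP genes and 3 genes that control them. They were chosen by name, as rows of the deposited count and TPM tables with these gene symbols, and make up 46 of 60623 genes listed. By role they fall into 5 regulators, 20 genes of the sterol arm and 21 genes of the fatty acid arm. Messenger RNA was sequenced from 22Rv1 cells, a human prostate carcinoma line, grown in RPMI 1640 medium with 10% fetal bovine serum. All groups carried the same first step, knockdown of PDCD4 by a short hairpin RNA, and differed in the PDCD4 that was put back. PDCD4 is an inhibitor of translation initiation, and the study asked what PLK1-mediated phosphorylation of PDCD4 changes in relation to enzalutamide resistance. The groups were S239D PDCD4, in which an aspartate replaces the serine at that residue and carries a negative charge, S239A PDCD4, in which an alanine replaces it, and wild-type (WT) PDCD4, with 3 libraries each. No drug is named in the sample labels, the rescue was compared in 1 line only, and separate cultures are not stated for the replicates, so the p-values measure the spread between these libraries. Cells without knockdown or without rescue were not analysed here.

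SREBPs are made as membrane proteins of the endoplasmic reticulum. When sterols are scarce, the escort protein SCAP carries them to the Golgi, where proteases release the transcription factor domain; when sterols are plentiful, INSIG proteins hold SCAP back. The protein from SREBF2 is known mainly for the genes of cholesterol synthesis, and the main SREBF1 products for those of fatty acid synthesis. Prostate cancer cells are known for high fatty acid synthase expression.

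Total counts were 5696841 to 9688554 per library, and levels below are normalised read counts scaled to library size (CPM) unless TPM, which is also scaled for transcript length, is named. Replicate 2 of S239D and replicate 2 of S239A differed most from their fellow replicates: the chi-square statistic per degree of freedom between replicates was 9.15 to 15.7 in pairs with one of them and 1.9 to 2.48 in the other pairs. PDCD4 itself, which holds the targeted and the rescue transcript if both are counted, had 16.8, 17.1 and 17 CPM in S239D, 19, 23.1 and 25 CPM in S239A, and 24.1, 24.9 and 20.4 CPM in WT. The log2 fold change (± SE) of S239D against WT was -0.44 ± 0.13 (edgeR adjusted p = 0.0164), and these counts do not show which variant a cell carried. A gene is called changed where the adjusted p of edgeR's quasi-likelihood test, over 16213 genes tested, was below 0.05. Called genes were 41.4% of those tested for S239D against WT, 0.00617% (1 gene) for S239A against WT, and 43.6% for S239D against S239A. The first and the last of these comparisons share the S239D libraries, and the comparisons against WT share the WT libraries. With limma on log2(TPM + 1), 2526 genes were higher and 1825 lower in S239D than in WT, against 3195 higher and 3513 lower with edgeR on the counts. For S239D against S239A, limma called 2784 higher and 1913 lower, and edgeR 3390 higher and 3674 lower.

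The promoters below are shown because they belong to genes whose levels differ in opposite directions below. Sequences are RefSeq's, build GRCh38.p14, 250 bases before to 50 bases after the annotated start, read on the strand of the gene from 5′ to 3′. Capitals mark matches to the sterol regulatory element TCACNCCAC, which SREBPs bind, or to CCAAT, the site of the cofactor NF-Y, on either strand (on the opposite strand CCAAT reads as ATTGG).
SREBF2, chr22:41832855-41833154, plus strand: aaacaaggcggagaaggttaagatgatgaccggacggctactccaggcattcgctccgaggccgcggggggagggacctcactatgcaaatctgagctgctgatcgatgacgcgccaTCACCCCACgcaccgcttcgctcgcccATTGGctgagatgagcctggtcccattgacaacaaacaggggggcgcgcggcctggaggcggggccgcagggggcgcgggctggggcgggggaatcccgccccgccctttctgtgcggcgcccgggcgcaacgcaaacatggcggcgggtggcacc
SREBF1, chr17:17836937-17837236, minus strand: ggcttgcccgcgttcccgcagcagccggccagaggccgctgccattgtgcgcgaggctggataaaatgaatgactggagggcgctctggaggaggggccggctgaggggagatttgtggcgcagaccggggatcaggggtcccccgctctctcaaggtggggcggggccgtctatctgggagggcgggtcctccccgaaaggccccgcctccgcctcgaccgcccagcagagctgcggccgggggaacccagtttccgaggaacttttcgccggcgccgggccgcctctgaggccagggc
FDPS, chr1:155308616-155308915, plus strand: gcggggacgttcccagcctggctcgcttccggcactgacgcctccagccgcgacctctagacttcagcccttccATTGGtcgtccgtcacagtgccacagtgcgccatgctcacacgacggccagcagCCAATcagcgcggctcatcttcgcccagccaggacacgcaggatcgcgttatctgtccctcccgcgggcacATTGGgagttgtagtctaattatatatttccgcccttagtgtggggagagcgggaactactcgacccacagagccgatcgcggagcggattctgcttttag
LSS, chr21:46228725-46229024, minus strand: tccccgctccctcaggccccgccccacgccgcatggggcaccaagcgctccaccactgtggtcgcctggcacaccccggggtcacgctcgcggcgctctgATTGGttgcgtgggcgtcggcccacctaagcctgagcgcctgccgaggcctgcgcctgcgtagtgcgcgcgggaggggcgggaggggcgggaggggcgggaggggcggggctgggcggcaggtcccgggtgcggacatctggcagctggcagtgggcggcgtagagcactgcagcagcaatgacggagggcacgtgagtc
MID1IP1, chrX:38801209-38801508, plus strand: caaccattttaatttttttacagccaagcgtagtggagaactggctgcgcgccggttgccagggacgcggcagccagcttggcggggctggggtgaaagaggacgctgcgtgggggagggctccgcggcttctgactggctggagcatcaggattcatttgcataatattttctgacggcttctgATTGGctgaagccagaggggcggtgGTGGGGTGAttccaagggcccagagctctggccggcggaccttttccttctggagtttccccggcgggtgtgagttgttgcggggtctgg

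The SREBF2 window holds a sterol regulatory element at -133 to -125 from the start and a CCAAT match at -106 to -102. The MID1IP1 window holds both as well, the element at -40 to -32 and CCAAT at -65 to -61, both on the opposite strand and not overlapping. FDPS has 3 CCAAT matches and LSS 1, and the SREBF1 window has neither motif. Only these exact letters in the listed windows were searched, so a variant element or one outside the window would be missed. Promoter windows were found for 41 of the 46 genes, 59 windows in all. The sterol regulatory element was in a window of 3 of these genes (SREBF2, MID1IP1 and ACSL1; 7.32%) and of 1.39% of all 27305 genes in the table. By arm it was in 0 of 17 sterol genes, 2 of 19 fatty acid genes and 1 of 5 regulators. CCAAT was in a window of 31 of 41 genes (75.6%), among them 15 of 17 sterol genes (88.2%), 14 of 19 fatty acid genes (73.7%) and 2 of 5 regulators (40%), and of 39.7% of all genes. The GC box GGGCGG, searched on both strands, was in 92.7% of the genes and 48.3% of all genes, and the E-box CACGTG in 12.2% and 8.77%. These matches describe letters, not binding.

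S239D against WT gave 20 called genes among the 45 members tested (44.4%), beside 41.4% of all genes tested. Of these, 11 rose, beside 19.7% of all genes, and 9 fell, beside 21.7%. For S239D against S239A it was 22 (48.9%), beside 43.6% of all genes, with 12 higher (20.9% of all genes) and 10 lower (22.7%). For S239A against WT no member was called by edgeR, 6 members had an unadjusted p below 0.05, and DESeq2 called 1, FASN. The share called among members is near that of all genes in each comparison. Libraries of S239D and WT did not overlap in 17 members higher and 12 lower, beside 4299 and 4438 of all 16213 genes tested. Between S239D and S239A this held for 14 members higher and 12 lower, beside 3924 and 4150 of all genes. The 46th gene, THRSP, a regulator of lipogenesis in liver and fat, had no count in any library. In bulk RNA, fewer cells that express a gene and less of its RNA per cell cannot be told apart. The directions differed by arm: in S239D against WT the sterol arm had 7 genes higher and 0 lower, and the fatty acid arm 3 higher and 7 lower.

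Among the regulators, the 2 SREBP genes moved in opposite directions in S239D. SREBF1 (chromosome 17, 17810399 to 17837011, minus strand, as listed in the deposited table) had 403, 321 and 357 CPM in S239D, 547, 539 and 538 CPM in S239A, and 502, 522 and 546 CPM in WT. All S239D libraries lay below all others, and those of S239A and WT overlapped. The log2 fold change was -0.54 ± 0.085 for S239D against WT (edgeR adjusted p = 0.000202), -0.59 ± 0.085 for S239D against S239A (8.63e-05) and 0.05 ± 0.085 for S239A against WT (0.902). In TPM the picture was weaker: S239D had 170, 220 and 174, S239A 242, 215 and 231, and WT 205, 214 and 232, so that replicate 2 of S239D lay within the range of the others, and limma on log2(TPM + 1) gave -0.21 with an adjusted p of 0.177 for S239D against WT. SREBF1 overlaps RAI1 on the opposite strand, and whether the authors' counting used strand is not given in the sources used here.

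SREBF2 (chromosome 22, 41833079 to 41907307, plus strand) had 531, 481 and 518 CPM in S239D, 389, 440 and 390 CPM in S239A, and 374, 378 and 365 CPM in WT. The groups did not overlap, with S239D highest and WT lowest. It rose by 0.45 ± 0.077 on the log2 scale in S239D against WT (edgeR adjusted p = 0.000373) and by 0.33 ± 0.077 against S239A (0.00355), while S239A against WT gave 0.13 ± 0.077 (0.619). Set per length, the ratio of SREBF2 to SREBF1 in TPM was 0.878, 0.646 and 0.829 in S239D libraries, 0.436, 0.538 and 0.441 in S239A libraries, and 0.48, 0.462 and 0.418 in WT libraries. SREBF1 was thus the more abundant of the pair in every library, and by the smallest margin in S239D.

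INSIG2, one of the INSIG retention proteins, was low: 6.61, 7.28 and 7.87 CPM in S239D, 9.26, 9.1 and 8.2 CPM in S239A, and 9.54, 10 and 9.75 CPM in WT. It fell by 0.42 ± 0.16 on the log2 scale in S239D against WT (edgeR adjusted p = 0.0453). That call was at the threshold: it was lost on leaving out any library except S239A replicate 2, with adjusted p of 0.0508 to 0.128. INSIG1, itself a known SREBP target, gave -0.13 ± 0.085 (0.23) with S239D at 62.5 to 69.8 CPM, S239A at 70.9 to 73.8 CPM and WT at 70.2 to 73 CPM. SCAP gave 0.19 ± 0.1 (0.166), and was called without S239A replicate 2 (0.19, adjusted p = 0.0323), a library that held 245 CPM against 180 to 191 CPM in the other 2 S239A libraries. SCAP lies on chromosome 3, whose tested genes had a median of 0.22 in S239D against WT. Against S239A, SCAP gave 0.05 (0.718), and 0.20 (0.0417) without that library.

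**Figure D1:**
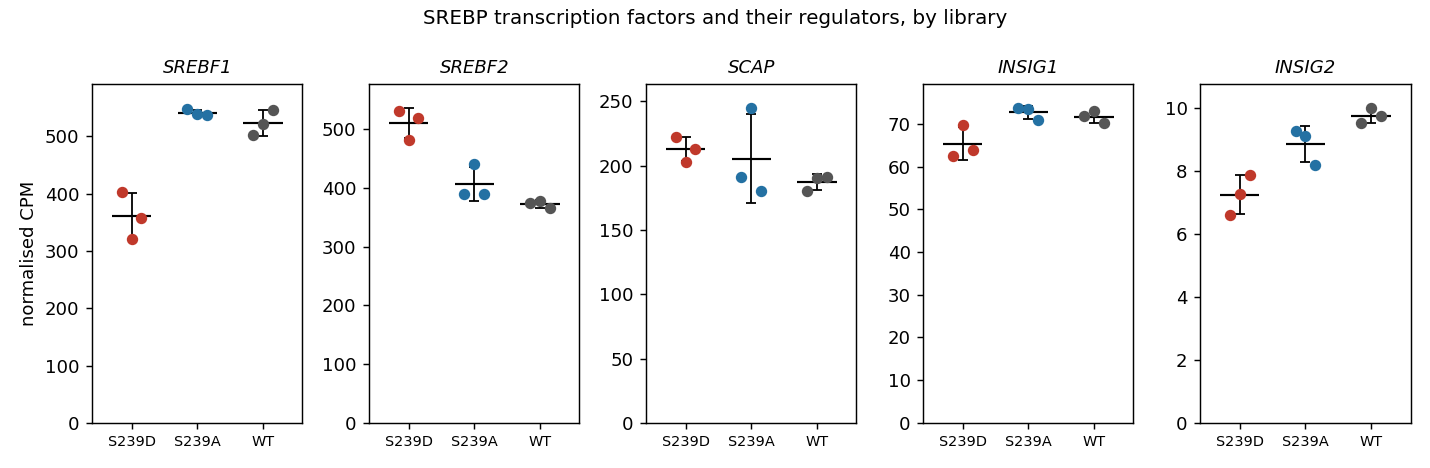
Normalised CPM of the 5 regulator genes in each library (points), with the mean (horizontal line) and SD (bars) of the 3 libraries of S239D, S239A and WT. SREBF1 is lower and SREBF2 higher in all 3 S239D libraries than in any other library.

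In the sterol arm, 18 of 20 genes had a positive log2 fold change in S239D against WT, the median was 0.23 against 0.00 over all genes tested (0.001), and 7 genes rose: IDI1, ACAT2, FDPS, SQLE, LSS, SC5D and DHCR7. No sterol gene fell. The 7 called genes are 35% of the arm, beside 41.4% called among all genes, of which 19.7% were higher and 21.7% lower. The 2 genes with a negative value were EBP (-0.14, adjusted p = 0.27) and STARD4 (-0.04, 0.821). Against S239A, 9 genes rose and 0 fell, the same 7 with HMGCS1 and TMEM97, with a median of 0.25. The share called was 45%, beside 43.6% of all genes (20.9% higher and 22.7% lower). Replicate 2 of S239D was the lowest S239D library in several genes of the mevalonate pathway. Without it, 11 sterol genes rose against WT, adding PMVK, MVD, MVK and TM7SF2, and the median was 0.32 (0.319). The number called among all genes moved as well on leaving out libraries, from 5322 to 8522, against 6708 with all libraries.

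The mevalonate pathway turns acetyl-CoA into the isoprenoid farnesyl diphosphate, and 3 of its 7 genes rose against WT and 4 against S239A. The shares called were 42.9% and 57.1%, beside 41.4% and 43.6% of all genes (19.7% and 20.9% higher). IDI1, the isomerase that makes dimethylallyl diphosphate (chromosome 10, 1039152 to 1049170, minus strand), had 65, 79.4 and 73.4 CPM in S239D, 39.5, 41.2 and 41.9 CPM in S239A, and 52, 48.3 and 46.2 CPM in WT. The order was S239D, WT, S239A with no overlap between any groups. IDI1 changed by 0.57 ± 0.1 against WT (edgeR adjusted p = 0.000438) and by 0.83 ± 0.1 against S239A (1.79e-05), with -0.26 ± 0.1 for S239A against WT (0.438). ACAT2, the cytosolic acetyl-CoA acetyltransferase that feeds the pathway, had 45, 46.4 and 47.5 CPM in S239D, 25.7, 28.3 and 29.7 CPM in S239A, and 33.3, 31.3 and 35.8 CPM in WT. It had the same order without overlap, and its log2 fold change was 0.46 ± 0.1 against WT (0.00226) and 0.73 ± 0.1 against S239A (6.4e-05). ACAT2 overlaps TCP1 on the opposite strand, a gene with a mean count of 3150 against 303 for ACAT2, that gave -0.15 (-0.155) in S239D against WT.

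FDPS, farnesyl diphosphate synthase, was the most abundant gene of the pathway in TPM (mean 254 over all libraries). It had 194, 180 and 192 CPM in S239D, 139, 124 and 150 CPM in S239A, and 138, 152 and 153 CPM in WT, with S239D above both others. FDPS rose by 0.36 ± 0.088 against WT (edgeR adjusted p = 0.00504) and by 0.45 ± 0.088 against S239A (0.000892). FDPS overlaps RUSC1-AS1 on the opposite strand, with a mean count of 99 against 1330 for FDPS. RUSC1-AS1 gave 1.45 (7.37e-05) in S239D against WT. HMGCS1, which makes hydroxymethylglutaryl-CoA, had 71.3, 79.9 and 76.2 CPM in S239D, 66.3, 64.7 and 56.7 CPM in S239A and 76.8, 72.3 and 74.5 CPM in WT. S239D and WT overlapped (0.02 ± 0.092, adjusted p = 0.86), and S239A lay below both. The difference between S239D and S239A was 0.28 ± 0.092 (0.0239), not called without S239D replicate 3 (0.28, 0.0655) or without S239A replicate 3 (0.21, 0.112).

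PMVK, MVD and MVK, the 2 kinases and the decarboxylase of the middle of the pathway, were not called against WT. Each was called without replicate 2 of S239D. PMVK had 36.7, 21.7 and 41.1 CPM in S239D, 28.5, 24.6 and 29.9 CPM in S239A and 26.9, 25.6 and 23.8 CPM in WT. Replicate 2 of S239D was the lowest of all 9 libraries and the other 2 the highest. PMVK gave 0.39 ± 0.18 against WT (edgeR adjusted p = 0.105), and 0.62 (0.00101) without that library. With all libraries PMVK was called with no filter on low counts (0.38, 0.0258) and with the replicate number as a block (0.37, 0.0498). MVD lies on chromosome 16, whose tested genes had a median of 0.098 in S239D against WT. It gave 0.20 ± 0.16 (0.332), and 0.38 (0.0176) without S239D replicate 2. MVK gave 0.26 ± 0.12 (0.109), and 0.33 (0.0477) without it, here with replicate 1 at 34.3 CPM and replicates 2 and 3 at 26 and 27 CPM. Against S239A, PMVK gave 0.26 ± 0.18 (0.254), and 0.49 (0.00381) without S239D replicate 2.

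From squalene to cholesterol, 4 of 11 genes rose in S239D against WT and the same number against S239A. The share called was 36.4% in each, beside 41.4% and 43.6% of all genes (19.7% and 20.9% higher). SQLE, squalene epoxidase, an oxygen-dependent rate-controlling enzyme (chromosome 8, 124998497 to 125022283, plus strand), had 55.2, 67.2 and 54 CPM in S239D, 33.8, 35.9 and 36.7 CPM in S239A, and 33.6, 36.7 and 38.3 CPM in WT. Each S239D library was above each other library, and S239A and WT overlapped. Its log2 fold change was the largest of the sterol arm against WT: 0.70 ± 0.11, or 1.62-fold (edgeR adjusted p = 0.00019), and 0.73 ± 0.11 against S239A (0.000116). LSS, lanosterol synthase (chromosome 21, 46188141 to 46228824, minus strand), had 98.6, 74.6 and 92.9 CPM in S239D, 60.6, 56.1 and 60.8 CPM in S239A, and 52.6, 60.6 and 61 CPM in WT. S239D again did not overlap the others, and LSS rose by 0.61 ± 0.11 (0.615) against WT (0.000577) and by 0.58 ± 0.11 (0.585) against S239A (0.000714).

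SC5D, the lathosterol desaturase, had 55.4, 82.6 and 65.2 CPM in S239D, 44.1, 45.8 and 45 CPM in S239A, and 46.7, 52 and 48.2 CPM in WT. The S239D libraries spread most, with replicate 2 highest, and all lay above WT. SC5D rose by 0.47 ± 0.13 against WT (edgeR adjusted p = 0.0082) and by 0.59 ± 0.13 against S239A (0.00176), and the value against WT was 0.31 (0.0225) without replicate 2 of S239D. With limma on log2(TPM + 1) it was 0.36 (adjusted p = 0.115), not called. DHCR7, the last reductase of one branch of the pathway, rose by 0.34 ± 0.086 (0.00602) and by 0.37 ± 0.086 (0.00314), with 123 to 141 CPM in S239D, 97.7 to 110 CPM in S239A and 101 to 109 CPM in WT.

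FDFT1, squalene synthase and the gene of this stretch with the highest mean TPM (190), had 233, 253 and 249 CPM in S239D, 216, 212 and 222 CPM in S239A, and 206, 229 and 232 CPM in WT. The S239D libraries were highest by a small margin, and FDFT1 was not called (0.14 ± 0.077, edgeR adjusted p = 0.157, 95% interval -0.02 to 0.31). FDFT1 and SQLE lie on chromosome 8, whose tested genes had a median of 0.109 in S239D against WT. CYP51A1, MSMO1, NSDHL and HSD17B7, the lanosterol demethylation genes, gave 0.12, 0.03, 0.06 and 0.10 against WT, none called. TM7SF2, a sterol reductase, gave 0.28 ± 0.11 (0.057), and was called without S239D replicate 2 (0.38, 0.00703), S239A replicate 2 (0.28, 0.0428) or WT replicate 3 (0.36, 0.0433). Against S239A it gave 0.17 ± 0.11 (0.225), and 0.28 (0.0353) without S239D replicate 2. It overlaps VPS51 on the same strand, which gave -0.42 (0.00535) against WT and -0.51 (0.0013) against S239A. The rise was thus called in 4 named enzymes, and 7 genes of the stretch were not called. Of the 11 genes, 10 had a positive value against WT, beside 8116 of all 16213 genes tested. In 6 of the 11 all S239D libraries lay above all WT libraries, beside 4299 of all genes.

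Of the sterol transport genes, TMEM97, which encodes a sterol-binding endoplasmic reticulum protein, had 33.1, 44.9 and 40.3 CPM in S239D, 30.2, 28.9 and 27 CPM in S239A, and 36, 34.1 and 32.8 CPM in WT. S239D overlapped WT and lay above S239A. TMEM97 gave 0.20 ± 0.12 against WT (edgeR adjusted p = 0.191), called without S239D replicate 1 (0.31, 0.0459), and rose by 0.46 ± 0.12 against S239A (0.0067). STARD4, a cytosolic sterol carrier, was at 39.3 to 48.4 CPM in S239D, 36.3 to 42.4 CPM in S239A and 41.2 to 46 CPM in WT, and was called in neither comparison. STARD4 overlaps STARD4-AS1 on the opposite strand, with a mean count of 115 against 350 for STARD4. STARD4-AS1 gave -1.555 (3.04e-05) in S239D against WT.

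**Figure D2:**
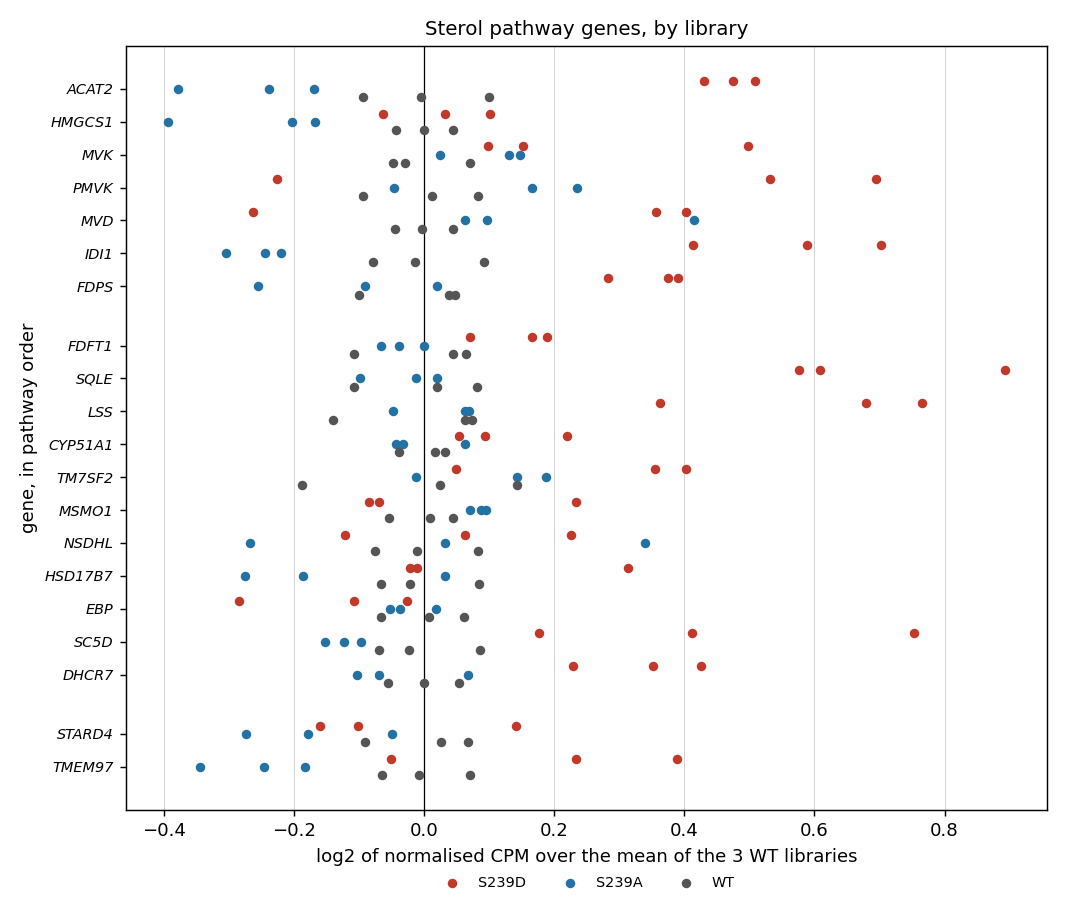
Each point is 1 library, plotted as the log2 of its normalised CPM over the mean of the 3 WT libraries, for the 20 sterol genes in pathway order (mevalonate, squalene to cholesterol, transport). S239D points of ACAT2, MVK, IDI1, FDPS, FDFT1, SQLE, LSS, CYP51A1, SC5D and DHCR7 lie right of all WT points. Replicate 2 of S239D lies left of them in PMVK and MVD.

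The fatty acid arm did not move as 1 group. Of its 20 tested genes, 3 rose (FASN, ACACA and LPIN1) and 7 fell (ACSL4, MID1IP1, ACACB, FADS3, ELOVL7, ELOVL5 and ELOVL1) in S239D against WT, and the median log2 fold change was 0.01 (0.011). The share called was 50%, beside 41.4% of all genes (19.7% higher and 21.7% lower). Against S239A, 2 rose (FADS2 and ELOVL6) and 9 fell (ACSL4, ACACB, FADS3, MID1IP1, ELOVL5, ACSS2, ELOVL7, FADS1 and ELOVL1), with a median of -0.04. The share called there was 55%, beside 43.6% of all genes (20.9% higher and 22.7% lower). The median against WT was -0.03 with upper quartile scaling, where the median of all genes was -0.04. With limma on log2(TPM + 1) it was 0.13, where that of all genes was 0.08. In the main edgeR fit the arm's median against WT was -0.05 without S239D replicate 1 and -0.04 without S239D replicate 3.

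Of the 7 tested genes of acetyl-CoA supply and chain synthesis, 2 rose (FASN and ACACA) and 2 fell (MID1IP1 and ACACB) in S239D against WT. The share called was 57.1%, beside 41.4% of all genes (19.7% higher and 21.7% lower). FASN, fatty acid synthase (chromosome 17, 82078338 to 82098294, minus strand), was the most abundant gene of all 46, with a mean of 488 TPM. It had 3020, 2560 and 2720 CPM in S239D, 2760, 3080 and 2720 CPM in S239A, and 2000, 2060 and 2110 CPM in WT. Both variants lay above all WT libraries and overlapped each other. FASN rose by 0.43 ± 0.08 in S239D against WT (edgeR adjusted p = 0.000728). In S239A against WT it gave 0.48 ± 0.08 (0.475), or 1.39-fold, with an edgeR adjusted p of 0.131; over the alternatives that p ran from 5.71e-06 to 0.713, and DESeq2 gave 3.67e-05. It passed the threshold in edgeR without S239D replicate 2 (0.47, 0.0207), where the S239D libraries enter through the shared estimate of spread. S239D against S239A gave -0.05 ± 0.08, with a 95% interval of -0.22 to 0.12.

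MID1IP1, known in other tissues to bind acetyl-CoA carboxylase and raise its activity (chromosome X, 38801432 to 38806537, plus strand), had 85.9, 62.9 and 85.2 CPM in S239D, 129, 118 and 120 CPM in S239A, and 128, 125 and 125 CPM in WT. All S239D libraries were far below the others, and the fall was 0.69 ± 0.11 against WT (edgeR adjusted p = 0.000193) and 0.65 ± 0.11 against S239A (0.00027). ACACB, the mitochondrial acetyl-CoA carboxylase, had 18.3, 17.9 and 17 CPM in S239D, 34.4, 33.8 and 32.8 CPM in S239A, and 23.3, 29.5 and 27.8 CPM in WT. The 3 groups did not overlap, with S239A highest and S239D lowest. ACACB fell by 0.59 ± 0.12 against WT (0.00119) and by 0.93 ± 0.12 against S239A (2.36e-05), and gave 0.33 ± 0.11 in S239A against WT (0.355). With limma on log2(TPM + 1) the fall of ACACB was 0.44 against WT (adjusted p = 0.18) and 0.53 against S239A (0.109), neither called.

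ACACA, the cytosolic carboxylase of fatty acid synthesis, had 255, 286 and 262 CPM in S239D, 230, 305 and 228 CPM in S239A, and 215, 220 and 216 CPM in WT. S239D and S239A were above WT in every library, and replicate 2 was the highest in both. ACACA rose by 0.30 ± 0.1 in S239D against WT (edgeR adjusted p = 0.0309), a call lost on leaving out S239D replicate 2 (0.26, from 0.255, adjusted p = 0.0745), S239D replicate 3 (0.32, 0.0614) or WT replicate 1, 2 or 3 (0.30, 0.31 and 0.30, with 0.0915, 0.0758 and 0.0875). Against S239A it gave 0.07 ± 0.1 (0.589; from 0.075), and 0.23 (0.0202) without S239A replicate 2. ACLY, ATP citrate lyase, and SLC25A1, the mitochondrial citrate carrier, gave 0.01 ± 0.075 and 0.01 ± 0.13 in S239D against WT. ACSS2, which makes acetyl-CoA from acetate, was at 25.7 to 28.9 CPM in S239D, 35.2 to 38.3 CPM in S239A and 29.8 to 34 CPM in WT. It fell by 0.44 ± 0.1 against S239A (0.00359) and gave -0.23 ± 0.11 against WT (0.0995). ACSS2 overlaps GGT7 on the opposite strand, which gave -0.41 in S239D against WT (0.0169).

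Of the 8 desaturases and elongases, 0 rose and 4 fell in S239D against WT, with a median of -0.27 (-0.265). The share called was 50%, beside 41.4% of all genes, of which 21.7% were lower. ELOVL5, which extends polyunsaturated chains, had 171, 186 and 188 CPM in S239D, 255, 267 and 240 CPM in S239A, and 234, 230 and 235 CPM in WT. The 3 groups did not overlap, and ELOVL5 fell by 0.36 ± 0.077 against WT (edgeR adjusted p = 0.00188) and by 0.48 ± 0.076 against S239A (0.000176). With limma on log2(TPM + 1) the value against WT was -0.23 (adjusted p = 0.0617), not called. ELOVL7, which extends long saturated chains, had 29.3, 37.1 and 26.8 CPM in S239D, 39.5, 39.7 and 37.7 CPM in S239A, and 42, 41.6 and 38.2 CPM in WT. All S239D libraries were lower, replicate 2 by little. The fall was 0.39 ± 0.12 against WT (0.0192), with adjusted p of 0.0604 without S239D replicate 1 (-0.35), 0.107 without S239D replicate 3 (-0.29, from -0.287), 0.073 without WT replicate 1 (-0.36) and 0.0585 without WT replicate 2 (-0.37). Against S239A it was 0.33 ± 0.12 (0.0393), a call that was lost on leaving out any library other than S239D replicate 2, with adjusted p of 0.0546 to 0.189.

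FADS3, a desaturase of the FADS cluster on chromosome 11, had 22, 11.6 and 16.5 CPM in S239D, 27.5, 23.1 and 28.7 CPM in S239A, and 27.2, 22.1 and 24.3 CPM in WT. The S239D libraries lay below all others, replicate 1 just below the lowest WT library. FADS3 fell by 0.56 ± 0.18 against WT (edgeR adjusted p = 0.0252) and by 0.66 ± 0.18 against S239A (0.0091). Against WT the call was lost without S239D replicate 2 (-0.36, 0.0784), S239D replicate 3 (-0.55, 0.0713), WT replicate 1 (-0.48, 0.109) or WT replicate 3 (-0.57, 0.0594). ELOVL1, the elongase of very long saturated chains, fell by 0.33 ± 0.086 against WT (0.00671), with 94.5 to 108 CPM in S239D, 111 to 125 CPM in S239A and 122 to 127 CPM in WT. Against S239A ELOVL1 fell by 0.23 ± 0.086 (0.0386; from -0.235), lost on leaving out S239D replicate 1 or 2, S239A replicate 1 or any WT library, with adjusted p of 0.0587 to 0.162.

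SCD, stearoyl-CoA desaturase and the gene of this role with the highest mean TPM (146), had 569, 615 and 607 CPM in S239D, 502, 593 and 482 CPM in S239A, and 496, 523 and 523 CPM in WT. S239D lay above WT and overlapped S239A through its replicate 2. SCD gave 0.22 ± 0.085 against WT (edgeR adjusted p = 0.0546), and was called with DESeq2 (0.0384) and in edgeR without S239A replicate 2 (0.22, 0.00767) or S239A replicate 3 (0.22, 0.047). Against S239A SCD gave 0.18 (0.0951), and 0.28 (0.00352) without S239A replicate 2. In TPM, SCD stood at 1.52, 1.54 and 1.54 times ELOVL5 in the S239D libraries, at 0.952, 1.09 and 0.949 times in S239A and at 1.01, 1.08 and 1.08 times in WT.

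FADS1 and FADS2, neighbouring and overlapping desaturase genes, moved apart against S239A. FADS1 fell by 0.29 ± 0.083 (edgeR adjusted p = 0.0113), with 119 to 123 CPM in S239D, 136 to 160 CPM in S239A and 135 to 145 CPM in WT, but the deposited TPM turned its direction round (0.12 with limma, adjusted p = 0.643). FADS2 rose by 0.42 ± 0.12 (0.00901), with 39.1 to 49.1 CPM in S239D, 31.9 to 34.7 CPM in S239A and 32.2 to 40.2 CPM in WT. The 2 genes lie on opposite strands, FADS2 also overlaps FEN1, and reads could have been split between them. Against WT they gave -0.20 ± 0.083 (0.068) and 0.29 ± 0.12 (0.0552). FADS1 was called against WT without S239A replicate 2 (-0.20, 0.0286), and FADS2 without S239D replicate 2 (0.38, 0.0139), S239A replicate 2 (0.30, 0.0447) or WT replicate 2 (0.36, 0.0494). ELOVL6, which extends palmitate, rose by 0.35 ± 0.12 against S239A (0.0292), a call lost without S239D replicate 2 (0.23, 0.107), S239A replicate 1 (0.26, 0.135) or S239A replicate 3 (0.31, 0.0906).

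Among the genes of fatty acid activation and glycerolipid assembly, ACSL4 had the largest change of all members. ACSL4, which activates arachidonic and other polyunsaturated fatty acids (chromosome X, 109624244 to 109733403, minus strand), had 8.33, 7.28 and 9.03 CPM in S239D, 17.4, 28.9 and 17.6 CPM in S239A, and 18, 21.4 and 18.2 CPM in WT. S239D was far below the rest, and S239A replicate 2 was the highest library. ACSL4 fell by 1.21 ± 0.2, to 0.431 of the WT level (edgeR adjusted p = 0.000286), and by 1.37 ± 0.2 against S239A (8.41e-05). LPIN1, a phosphatidate phosphatase, had 77.7, 91.5 and 79.5 CPM in S239D, 73.4, 69.8 and 71.6 CPM in S239A, and 71.2, 67.6 and 64 CPM in WT. S239D was above both others, by 0.29 ± 0.092 against WT (0.0198), a call lost without WT replicate 2 (0.29, 0.0596) or WT replicate 3 (0.26, from 0.255, 0.0939).

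ACSL1, the acyl-CoA synthetase with the highest mean TPM of this role (65.9), had 149, 157 and 160 CPM in S239D, 142, 144 and 138 CPM in S239A, and 164, 149 and 145 CPM in WT. S239D and WT overlapped (0.03 ± 0.079, edgeR adjusted p = 0.816; 95% interval -0.14 to 0.20), and ACSL1 was not called against S239A either. GPAM, the mitochondrial glycerol-phosphate acyltransferase, gave 0.42 ± 0.17 against S239A (0.0579). With the replicate number as a block it was called (0.43, 0.0249), as it was without S239D replicate 1 (0.54, 0.0286) or S239A replicate 2 (0.67, 0.00172). PNPLA3, a lipid droplet hydrolase, was at 1.15 to 2.08 CPM in S239D, 0.717 to 1.73 CPM in S239A and 0.65 to 1.36 CPM in WT, too low for a difference to be detectable at this depth. PNPLA3 overlaps SAMM50 on the same strand, with a mean count of 416 against 10.7 for PNPLA3. SAMM50 gave 0.26 (0.034) in S239D against WT.

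**Figure D3:**
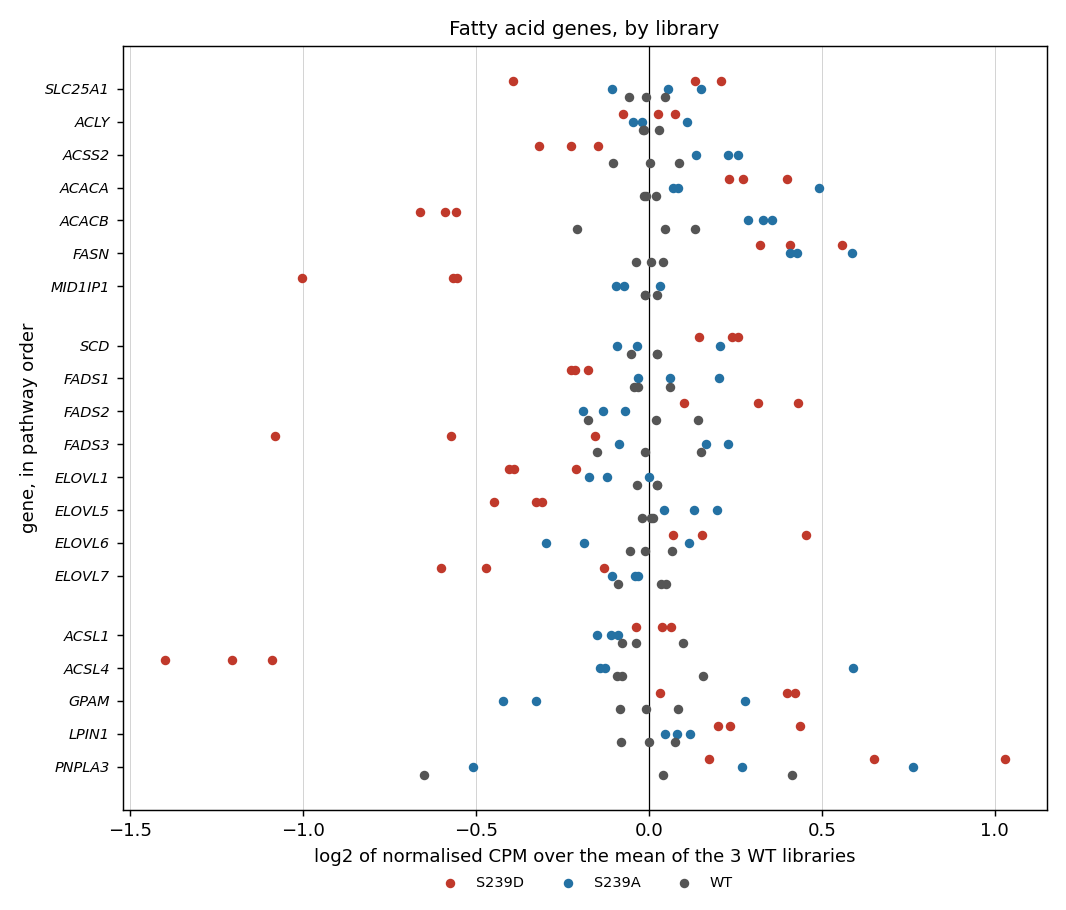
Each point is 1 library, plotted as the log2 of its normalised CPM over the mean of the 3 WT libraries, for the 20 tested fatty acid genes (supply and synthesis, desaturation and elongation, activation and glycerolipid). S239D points of ACSL4, MID1IP1, ACACB, ACSS2, FADS1, FADS3, ELOVL1, ELOVL5 and ELOVL7 lie left of all WT points. Those of FASN, ACACA, SCD, ELOVL6 and LPIN1 lie right of them, and so do the FASN points of S239A.

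Set side by side, the sterol mean was above the fatty acid mean in every S239D library and below it in every S239A library. The mean log2 difference from WT over the 20 sterol genes was 0.24 (0.235), 0.23 and 0.28 in the S239D libraries, -0.07, -0.06 and -0.02 in S239A, and -0.03, 0.01 and 0.02 in WT. Over the 20 fatty acid genes it was -0.07, -0.13 and -0.09 in S239D, 0.06, 0.15 and -0.01 in S239A, and -0.03, 0.02 and 0.01 in WT. The sterol minus fatty acid difference was 0.31, 0.36 and 0.37 in S239D libraries, -0.13, -0.21 and -0.01 in S239A libraries and between -0.01 and 0.01 in WT libraries, on which the scale is centred. With medians over genes in place of means, the fatty acid values in S239D were -0.004, -0.103 and 0.074, beside sterol values of 0.264, 0.222 and 0.298. In S239A the sterol medians were -0.045, -0.048 and -0.018 and the fatty acid medians 0.05, 0.155 and -0.057, so that replicate 3 had the reverse order. These scores describe chosen members and carry no test. In summed TPM the arms did not separate this way: the sterol genes held 1520 to 1570 TPM in S239D, 1180 to 1220 in S239A and 1160 to 1280 in WT, and the fatty acid genes 1680 to 1710 in S239D, 1570 to 1720 in S239A and 1490 to 1550 in WT. FASN is the largest part of the fatty acid sum, and its own level was higher in both variants than in WT. A higher sum cannot be told apart here from a change in the make-up of the RNA, since TPM and CPM are shares of each library.

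**Figure D4:**
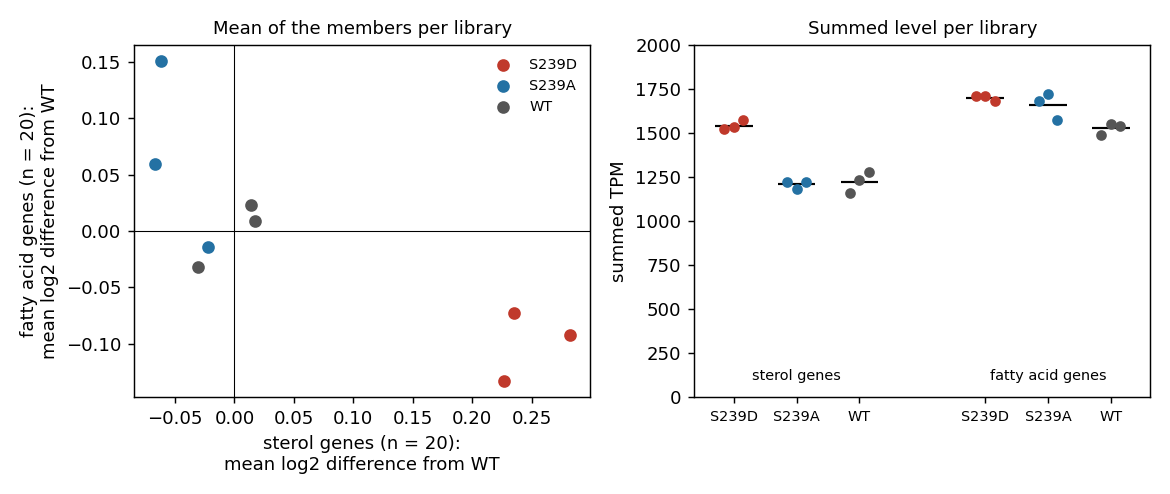
Left, mean log2 difference from the WT mean over the 20 sterol genes (horizontal) and the 20 tested fatty acid genes (vertical), 1 point per library. Right, summed TPM of each arm per library with the group mean as a line. The 3 S239D libraries sit at 0.23 to 0.28 on the sterol axis and below 0 on the fatty acid axis, while summed TPM is higher in S239D than in WT for both arms.

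In S239A against WT no member was called by edgeR. The 6 members with an unadjusted p below 0.05 were FASN, ACACB and ACACA, with positive values of 0.48 (0.475), 0.33 and 0.23, and HMGCS1, ACAT2 and IDI1, with negative values of -0.26 each. Among all genes 9.76% had such a p. Libraries did not overlap for 15 of 45 members, 8 higher and 7 lower, beside 19.5% of all genes (9.94% higher and 9.55% lower). The median over the sterol arm was -0.03 and over the fatty acid arm 0.06. Without replicate 2 of S239A and of S239D together, 3 of 45 members were called: FASN higher, and HMGCS1 (-0.29, edgeR adjusted p = 0.0311) and ELOVL6 (-0.24, 0.0389) lower. In that fit 874 of all 16519 genes tested were called, against 1 gene with all libraries.

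**Figure D5:**
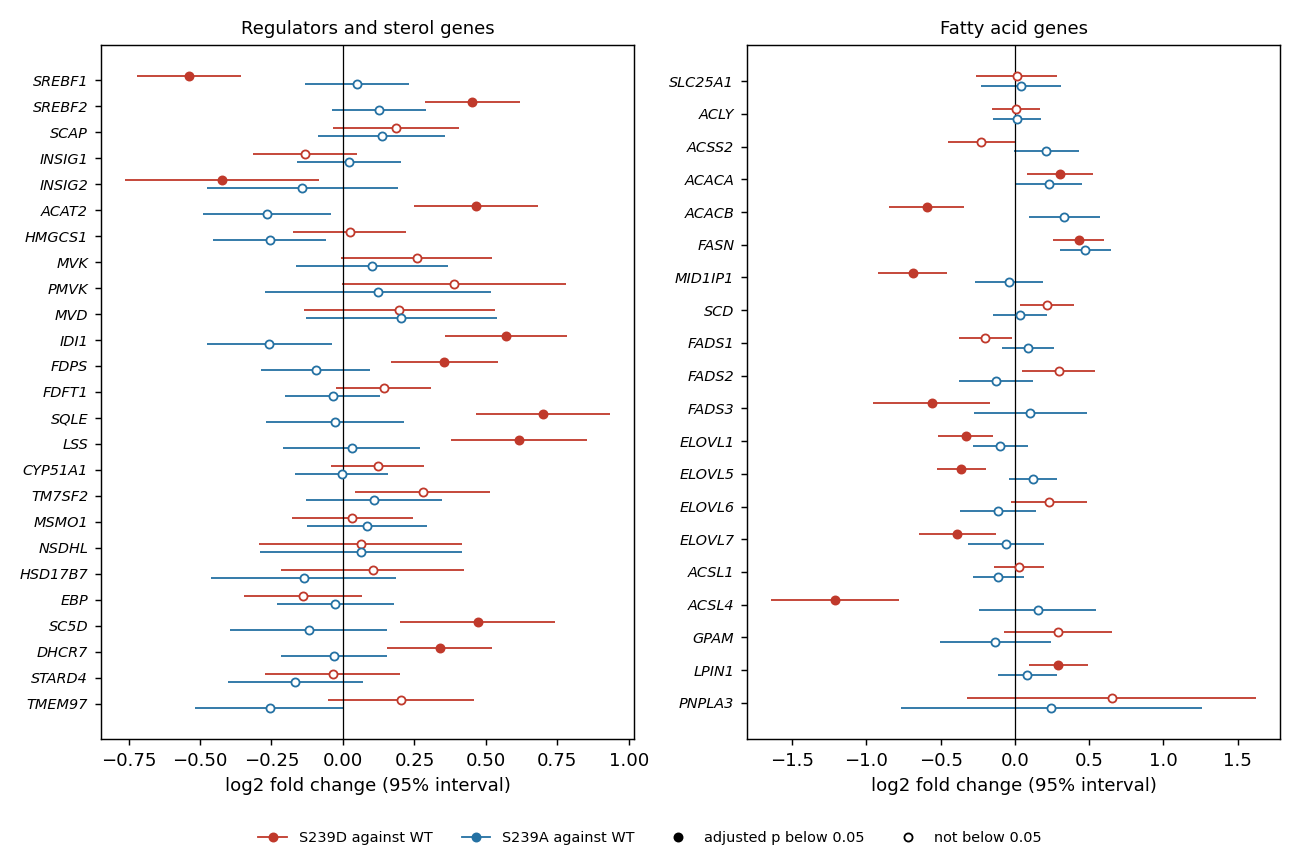
edgeR log2 fold changes with 95% intervals for the 45 tested members in S239D against WT (red) and S239A against WT (blue), filled where the adjusted p was below 0.05. Filled red points lie on the right for 7 sterol genes and SREBF2, and on both sides for fatty acid genes, and no blue point is filled.

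Other genes of the pathway moved in both directions in S239D, and 50% to 63.6% of each list of them was called against WT, beside 41.4% of all genes. Of 12 genes of SREBP processing and sterol sensing, 3 rose and 3 fell against WT, among them MYLIP, a ubiquitin ligase induced by sterols through LXR (-0.43 ± 0.1, edgeR adjusted p = 0.00404). ERLIN2, an endoplasmic reticulum scaffold that binds SREBP complexes, rose by 0.30 ± 0.082 (0.00964). The proteases that release SREBPs, MBTPS1 and MBTPS2, gave 0.09 and -0.18 and were not called. Of 14 other sterol genes, 3 rose and 4 fell. SOAT1, which esterifies cholesterol, fell by 0.80 ± 0.1 (2.92e-05), and ABCG1, an LXR target that exports cholesterol, fell by 1.17 ± 0.2 (0.000352). NPC1, which releases cholesterol from lysosomes, rose by 0.73 ± 0.1 (8.8e-05), on chromosome 18, whose tested genes had a median of 0.21.

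Of 21 further fatty acid and glycerolipid genes tested, 6 rose and 7 fell in S239D against WT. SCD5, a second stearoyl-CoA desaturase, fell by 1.29 ± 0.18 (edgeR adjusted p = 7.03e-05) and ELOVL2 by 0.85 ± 0.15 (0.000403), while GPAT4, a glycerol-phosphate acyltransferase, rose by 0.53 ± 0.09 (0.000337). Of 11 genes of fatty acid oxidation, 3 rose and 4 fell. ACADL, long-chain acyl-CoA dehydrogenase, rose by 1.46 ± 0.15 (6.58e-06) and CPT1B, a carnitine palmitoyltransferase, by 0.96 ± 0.19 (0.00122), and ACADM, the medium-chain dehydrogenase, fell by 0.59 ± 0.11 (0.000527). No tested gene of these 4 lists was called by edgeR in S239A against WT.

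Markers of the labelled cell type also moved in S239D. All 10 luminal epithelial markers were expressed, and in S239D against WT 2 rose and 6 fell. The share called was 80%, beside 41.4% of all genes (19.7% higher and 21.7% lower). Their summed levels were 2670 to 2730 TPM in S239D, 3690 to 4110 TPM in S239A and 3550 to 3640 TPM in WT. The basal (3 genes), endothelial (3) and immune (5) markers summed to at most 0.22, 0.14 and 2.31 TPM in S239D, 2.13, 0.06 and 11 TPM in S239A and 0.43, 0.05 and 6.76 TPM in WT, and the 6 fibroblast markers to 26.9 to 37 TPM in S239D, 47 to 61.1 TPM in S239A and 46.5 to 59 TPM in WT. Of the 2 lipid-rich cell types, the 8 hepatocyte markers summed to 61.7 to 113 TPM in S239D, 16.4 to 20.1 TPM in S239A and 25 to 25.2 TPM in WT, nearly all from ALB, with FGA and FGB at 0 in every library, and the 6 adipocyte markers to 2.8 to 3.36 TPM in S239D, 1.33 to 1.71 TPM in S239A and 1.18 to 1.54 TPM in WT, nearly all from PLIN4, with FABP4 at 0. Mitochondrial transcripts made up 4.72%, 6.01% and 4.9% of counts in S239D, 3.33%, 5.38% and 2.99% in S239A, and 2.99%, 2.83% and 3.04% in WT. The part of these shifts in the changes of sterol and fatty acid genes was not tested.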

How the data were processed

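RNA from 22Rv1 cells rescued with S239D, S239A or WT PDCD4 was sequenced in 3 libraries per group (poly-T-selected messenger RNA, random priming, per the labels' protocols). The authors deposited expected counts per gene, not normalised between libraries, and TPM, scaled within each library. The submitters' processing notes name Trimmomatic 0.39 and RSEM. Strandedness, aligner, build and annotation are not given in the sources used here. Of the values in the count table, 3.81% were not whole and were rounded.

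Genes passing edgeR's filterByExpr (16213 of 60623) were scaled by TMM and tested in 1 quasi-likelihood fit of all 9 libraries with edgeR 4.0.16 (R 4.3.3), with Benjamini-Hochberg adjustment over all genes tested and a threshold of 0.05. The fit was tested on simulated data. The floor of 3 counts was 0.31 to 0.527 CPM, which covers counting error only. Alternatives were DESeq2 1.42.0, limma 3.58.1 on log2(TPM + 1) and log2(TPM + 0.5) for genes of at least 1 TPM in 3 libraries, other scalings and filters, the compared groups alone, each library left out, and the replicate number as a block. The deviations of same-numbered libraries from their group means correlated at 0.1003, 0.2512 and 0.1027 between S239D and S239A. S239D replicate 1 correlated better with S239A replicate 3 (0.15), and the labels give no pairing. Against WT the correlations of same-numbered libraries were at most 0.0914. The main fit used no pairing, and the numbers entered only the alternative with the replicate block.

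Members, lists, marker genes and motifs were chosen with earlier results of these data known. Values in every library are given for called regulators, for the 3 called members of each role with the largest change in S239D against WT, and for the member of each role with the highest mean TPM; those given for other members were added after their values were seen. In each list of other pathway genes, the 3 called genes with the smallest adjusted p are named, except 1 that is not reported here, and MBTPS1 and MBTPS2 were added for their role. Arm scores are means, or medians where named, of log2 CPM (prior count 2) minus the gene's WT mean.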

Additional observations from a re-analysis of the deposited data

How the results depend on the processing

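Of the 135 fold changes of members (45 genes in 3 comparisons), 1 that was called changed direction under an alternative: FADS1 in S239D against S239A gave 0.12 (0.121 and 0.122) with limma on log2(TPM + 1) and log2(TPM + 0.5), against -0.29 on the counts. Counts of all genes called for S239D against WT were 4351 and 4348 with these limma fits against 6708, and for S239D against S239A 4697 and 4689 against 7064; fatty acid members called in the S239D against S239A comparison were 6 in both limma fits against 11. The limma fits gave sterol medians of 0.36 (0.36 and 0.365) against WT and 0.34 (0.337 and 0.343) against S239A, and fatty acid medians of 0.13 (0.126 and 0.127) and of 0.03 and 0.05 (0.032 and 0.05). Upper quartile scaling gave a fatty acid median of -0.03 (-0.031) against WT and a sterol median of 0.20 (0.202) against S239A. The medians of all genes moved too, to -0.04 (-0.042 and -0.041) with upper quartile scaling and to 0.08 to 0.10 (0.082 to 0.097) with limma in the same comparisons. Both limma fits also lost the calls of INSIG2, ACACA and ELOVL7 against WT and of SREBF1, HMGCS1, TMEM97, ACSS2, ELOVL1, ELOVL6 and ELOVL7 against S239A. For S239A against WT, all genes called were 1 with edgeR, 72 with DESeq2, 2 in each limma fit and 142 with no filter on low counts; members called were 0 with edgeR and 1 with DESeq2 and with no filter (in both, 1 of the fatty acid arm). The cause of these differences was not tested.

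With the replicate block, the calls for S239D against WT gained PMVK, TM7SF2 and SCD and lost INSIG2. For S239D against S239A, GPAM was the only member whose call changed. For S239A against WT, 0 members were called, with 6 genes called in all. In no pair of groups did every library correlate best with its own number. S239D replicate 1 correlated at 0.15 with S239A replicate 3, and the block rests on a shared number only.

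On leaving out libraries, members called ranged from 0 to 3 and all genes called from 1 to 874 for S239A against WT (sterol arm 0 to 1, fatty acid arm 0 to 2, medians -0.06 to -0.015 and 0.005 to 0.065), the highest counts without replicate 2 of both S239A and S239D. For S239D against WT the sterol median ranged from 0.193 to 0.321, the members called from 16 to 30 (all genes 5322 to 8522), the sterol genes called up to 11, and the fatty acid median from -0.05 to 0.037. For S239D against S239A these medians ranged from 0.203 to 0.294 and from -0.127 to 0.07, and the members called from 19 to 29 (all genes 5853 to 8243). The calls of SREBF2, ACAT2, IDI1, FDPS, SQLE, LSS, DHCR7, FASN, MID1IP1, ELOVL1 and ACSL4 for S239D against WT held in every alternative run. Depth limits PNPLA3, NSDHL, HSD17B7 and INSIG2 most, the members with the lowest counts.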
